A study of Homo sapiens with 7 samples.

Results

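NF-kB signalling was examined through 44 genes that encode its transcription factor subunits, the inhibitors that hold those subunits in the cytoplasm, the kinases and ubiquitin enzymes that relay the signal, and the feedback genes around TNFAIP3. The members were taken by name from a list of pathway genes, and all 44 were found among the 60675 gene identifiers of the deposited count table and passed the filter on low counts. The RNA came from MDA-MB-231, a human triple-negative breast cancer line. The cells were transfected with a control siRNA (siCTL, labelled DEPDC1 WT, 3 libraries) or with siRNA against DEPDC1 (siDEPDC1, labelled DEPDC1 KD, 4 libraries), both with Lipofectamine RNAiMAX. Transfection medium was exchanged at 8 h and harvest followed on day 2, so both groups carry the transfection itself. No inflammatory ligand is named in the labels. The siRNA sequence and the number of duplexes were not given in the sources used here, and a single line was studied. The labels do not say that replicates were separate cultures, so the p-values refer to spread among these libraries, and that spread may be technical.

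In resting cells, IkB proteins bind NF-kB dimers and keep them out of the nucleus. In the canonical branch, receptors of the TNF, interleukin and Toll-like families recruit adaptors and ubiquitin ligases, the IKK complex is activated, IkB is degraded, and dimers such as that of RELA and NFKB1 move to the nucleus. In the non-canonical branch, the kinase MAP3K14 accumulates and NFKB2 is processed to pair with RELB. Many targets of the pathway are its own inhibitors, among them NFKBIA and TNFAIP3, so the response limits itself. MDA-MB-231 cells are known for constitutive NF-kB activity.

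The siRNA target was low in the libraries labelled siDEPDC1. DEPDC1 was at 114 to 120.3 CPM (counts brought to a common library size with the TMM factors, which correct for library composition) in siCTL and at 11.9 to 15.3 CPM in siDEPDC1. Library totals ran from 7690583 counts (siDEPDC1 replicate 3) to 15360409 counts (siCTL replicate 2). Of the markers of the line, VIM was at 3491 to 3869 CPM, with CD44, AXL, EGFR and CAV1 at no less than 392 CPM in any library. EGFR and CAV1 were lower after DEPDC1 siRNA (log2 fold change -0.28 and -0.42; edgeR adjusted p = 0.00018 and 1.1e-07), as was CDH1, listed as low in the line, at no more than 1.55 CPM (-1.55; edgeR adjusted p = 0.0030). ESR1 and PGR did not exceed 0.651 CPM. SPARC, listed as high in the line, did not exceed 1.07 CPM, while ERBB2, listed as low, was at 61.7 CPM or more and EPCAM at 10.1 to 12.5 CPM. Of 23 markers listed for other cell types, 12 could be tested. Of these, 5 were higher (COL1A1, CD14, KRT8, KRT18 and KRT19), against 16.5% of all tested genes, and 7 did not pass edgeR's quasi-likelihood test. The summed level of the 23 markers was 1391 to 1593 CPM in siCTL and 1666 to 1977 CPM in siDEPDC1. Most of it came from the keratin genes KRT8 (684 to 958 CPM over all libraries), KRT18 (325 to 451 CPM) and KRT19 (324 to 485 CPM). Whether this keratin RNA comes from the line itself or from other cells was not tested. None of the other markers in this sum exceeded 32.3 CPM, the highest level of COL1A1. MS4A1 and DCN were at 0 in all libraries and the leukocyte marker PTPRC did not exceed 1.39 CPM. KRT5 was at 6.19 and 5.05 CPM in siCTL replicates 1 and 2 and at 0 in the other 5 libraries. The part of these markers in the results on NF-kB genes was not tested.

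More NF-kB genes were lower than higher after DEPDC1 siRNA. Of the 44 members, 22 were lower and 5 higher (edgeR quasi-likelihood test, adjusted p under 0.05 over all 16583 tested genes). In bulk RNA, fewer cells that express a gene and less RNA per cell cannot be told apart. The corresponding shares over all tested genes were 17.9% lower and 16.5% higher. The members' median log2 fold change (siDEPDC1 over siCTL) was -0.20, with a middle range from -0.35 to 0.031, whereas the median over all tested genes was 0.00094. In 20 members every siDEPDC1 library lay below every siCTL library and in 4 every one lay above, against 19.6% and 17.7% of all tested genes (37.3% in either direction). The changes were small: the largest fall, in NFKBIZ, was 1.75-fold and the largest rise, in IRAK1, 1.21-fold. Falls of at least 1.5-fold that passed the test occurred in NFKBIZ, BIRC3, PTGS2 and IKBKE, that is in 4 members, against 4.59% of all tested genes. A fit with siCTL replicate 3 as the only control left out the controls that held KRT5 reads. In that fit 13 members were lower and 2 higher, against 10.4% and 8.11% of the 17351 genes tested. It was added after seeing the data, and with 1 control its spread comes from the siDEPDC1 libraries alone. Its libraries are all part of the fit with all libraries too, so agreement between these fits is no separate evidence.

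**Figure D1:**
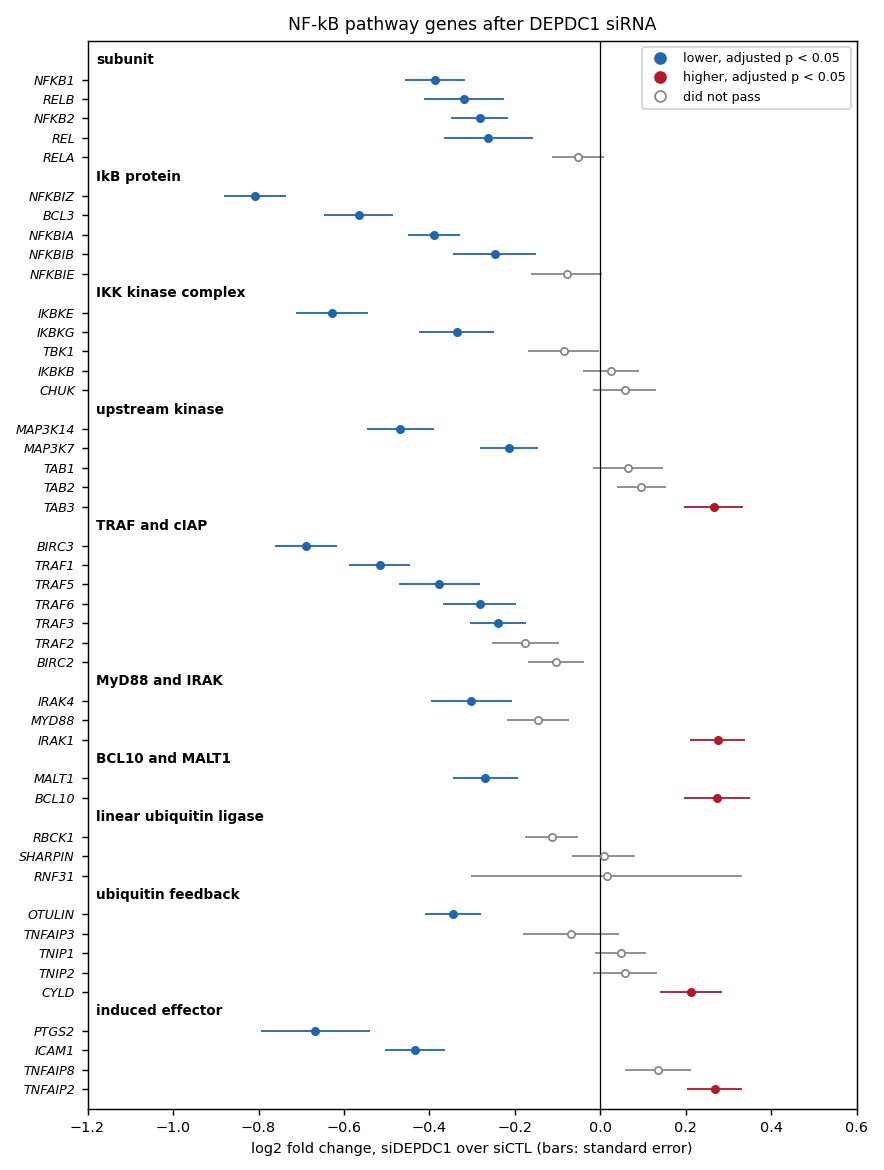
Log2 fold change of each of the 44 NF-kB genes (siDEPDC1 over siCTL, horizontal axis) with its standard error, grouped by role. Blue points were lower and red points higher at an adjusted p under 0.05, and open grey points did not pass. The 5 red points lie between 0.21 and 0.27, while the blue points reach -0.81.

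Some members are themselves textbook NF-kB targets. Of 16 such members (NFKB1, NFKB2, REL, RELB, NFKBIA, NFKBIE, NFKBIZ, BCL3, IKBKE, TRAF1, BIRC3, TNFAIP3, TNIP1, TNFAIP2, ICAM1 and PTGS2), 12 were lower and 1, TNFAIP2, was higher, with a median log2 fold change of -0.39. Of the other 28 members, 10 were lower and 4 higher, with a median of -0.095. Over all tested genes 17.9% were lower and 16.5% higher. Of the tested genes on a list of targets that are not members, 25.7% were lower and 20.0% higher, with a median of -0.088. The grouping of the members was made after the values were seen and was not tested. TNFAIP8, placed below among the effector genes, was not counted as a textbook target (log2 fold change 0.13, edgeR adjusted p = 0.19). Another choice of targets can change these shares.

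The promoters of several members hold letters that match the consensus bound by NF-kB. A promoter window of 250 bases before to 50 bases after the start was taken from RefSeq (GRCh38.p14) for 40 of the 44 members. The kappaB consensus of 10 bases was searched on both strands, counting overlapping matches. At least 1 match was present in 14 of these 40 members (35.0%), in 17.0% of the 11251 tested genes with a window, and in 11.3% of all 35116 windows in the table. The 14 members were NFKB1, NFKB2, REL, NFKBIA, NFKBIB, NFKBIZ, BCL3, TAB2, TRAF3, BIRC3, IRAK1, TNFAIP3, TNIP1 and CYLD. Of them, 9 were lower, 2 higher and 3 did not pass. Of the 26 members with a window but no match, 12 were lower, 3 higher and 11 did not pass. Among all tested genes with a window, 22.5% of those with a match and 19.6% of those without were lower. The shares that were higher were 17.0% with a match and 17.8% without. A match is a description of the letters in this window, and no match, as for ICAM1, TRAF1 and PTGS2, says nothing about binding elsewhere.

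Windows of 5 members are shown 5′ to 3′ on the strand of the gene, in lower case with each kappaB match in capitals. NFKB1, NFKBIA, NFKBIZ and BIRC3 are shown because they fell, and TNFAIP3 because it holds matches and did not pass the test. NFKB1 lies at chr4:102501109-102501408 (plus strand), with 1 match whose first base is 49 bases before the start. NFKBIA lies at chr14:35404700-35404999 (minus strand), with 1 match from 81 bases before the start. NFKBIZ lies at chr3:101827740-101828039 (plus strand), with 1 match from 223 bases before the start. The window of BIRC3, at chr11:102317234-102317533 (plus strand), holds matches from 199 and 135 bases before the start. TNFAIP3, at chr6:137867009-137867308 (plus strand), holds matches from 67 and 55 bases before the start.
NFKB1: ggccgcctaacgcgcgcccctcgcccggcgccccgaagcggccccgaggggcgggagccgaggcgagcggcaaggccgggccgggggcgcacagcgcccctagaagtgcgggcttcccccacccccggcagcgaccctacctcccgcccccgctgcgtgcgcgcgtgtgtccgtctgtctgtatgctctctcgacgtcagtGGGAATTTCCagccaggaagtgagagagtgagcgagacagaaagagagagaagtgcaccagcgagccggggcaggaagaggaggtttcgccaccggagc
NFKBIA: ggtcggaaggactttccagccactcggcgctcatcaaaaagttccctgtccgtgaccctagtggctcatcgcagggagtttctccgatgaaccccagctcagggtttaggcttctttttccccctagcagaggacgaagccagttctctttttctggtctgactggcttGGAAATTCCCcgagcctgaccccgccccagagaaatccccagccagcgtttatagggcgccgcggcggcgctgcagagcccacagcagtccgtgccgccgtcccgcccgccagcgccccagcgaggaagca
NFKBIZ: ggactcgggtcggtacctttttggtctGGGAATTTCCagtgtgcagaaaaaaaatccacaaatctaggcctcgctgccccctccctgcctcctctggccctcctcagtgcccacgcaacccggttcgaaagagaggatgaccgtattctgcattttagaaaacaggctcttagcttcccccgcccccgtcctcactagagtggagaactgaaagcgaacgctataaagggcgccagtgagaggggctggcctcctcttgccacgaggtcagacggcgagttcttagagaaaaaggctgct
BIRC3: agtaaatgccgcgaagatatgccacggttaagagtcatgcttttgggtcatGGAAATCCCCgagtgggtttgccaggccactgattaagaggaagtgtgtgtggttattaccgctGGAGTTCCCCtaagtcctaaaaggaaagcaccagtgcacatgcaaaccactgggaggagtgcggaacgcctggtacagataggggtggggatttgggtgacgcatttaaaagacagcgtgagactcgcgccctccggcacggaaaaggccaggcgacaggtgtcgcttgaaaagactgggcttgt
TNFAIP3: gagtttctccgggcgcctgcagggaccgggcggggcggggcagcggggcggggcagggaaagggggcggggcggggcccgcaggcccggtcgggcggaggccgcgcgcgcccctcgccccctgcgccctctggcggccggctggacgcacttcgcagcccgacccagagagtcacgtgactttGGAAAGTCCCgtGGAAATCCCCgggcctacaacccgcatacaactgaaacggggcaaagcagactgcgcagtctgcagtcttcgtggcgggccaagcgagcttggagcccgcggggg
The matches in BIRC3, TNFAIP3 and NFKBIA lie on the strand opposite to the gene, those shown for NFKB1 and NFKBIZ on the same strand. NFKB1 and NFKBIZ each have a further annotated start, and the window of that start held no match in NFKB1 and a match in NFKBIZ.

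Among the 5 transcription factor subunits, 4 were lower, against 17.9% of all tested genes, and RELA did not pass the test. NFKB1 (ENSG00000109320; GRCh38 chromosome 4, 102501329 to 102617302, plus strand), which gives the DNA-binding partner of RELA, was at 45.7, 43.6 and 44.3 CPM in siCTL and 35.6, 34.6, 32.2 and 33.4 CPM in siDEPDC1. The groups did not overlap, and the log2 fold change was -0.39 ± 0.070 (SE; edgeR adjusted p = 4.2e-05). NFKB2 (ENSG00000077150; chromosome 10, 102394110 to 102402529, plus strand), the precursor of the non-canonical subunit, was at 93.1, 86.0 and 79.1 CPM in siCTL and 68.5, 65.2, 75.4 and 75.2 CPM in siDEPDC1. Here too every siDEPDC1 library was below every siCTL library, with a log2 fold change of -0.28 ± 0.066 (SE; edgeR adjusted p = 0.0010). RELB, the usual partner of processed NFKB2, was at 27.4, 21.9 and 21.5 CPM in siCTL and 16.4, 18.6, 20.1 and 20.7 CPM in siDEPDC1. Its siCTL replicate 1 stood above the other controls. The log2 fold change of RELB was -0.32 ± 0.094 (SE; edgeR adjusted p = 0.0080), and without siCTL replicate 1 it was -0.20 and the call was lost (edgeR adjusted p = 0.16).

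REL and RELA both carry a transactivation domain. REL was at 14.2, 13.9 and 14.3 CPM in siCTL and 13.5, 10.3, 12.6 and 11.2 CPM in siDEPDC1. All 4 siDEPDC1 libraries were lower, but by little, and the log2 fold change of -0.26 ± 0.104 (SE) had an edgeR adjusted p of 0.049. That call was lost in 14 of the 16 alternative settings, with an edgeR adjusted p of 0.22 without siDEPDC1 replicate 2. RELA was at 105.0, 105.5 and 98.2 CPM in siCTL and 90.8, 99.6, 102.6 and 104.1 CPM in siDEPDC1. The groups overlapped and the log2 fold change was -0.053 (95% interval -0.17 to 0.065; edgeR adjusted p = 0.53).

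Levels of different genes were set side by side per kilobase of annotated exon, with the exons of all transcripts of a gene merged. The expressed transcript may be shorter than this length, so the order between genes is approximate. On this scale NFKB2 and RELA were the highest subunits in siCTL at 19.2 ± 1.56 and 18.8 ± 0.750 CPM per kb (SD, n = 3). Their library ranges overlapped. RELB followed at 7.77 ± 1.09 and NFKB1 at 7.12 ± 0.169 CPM per kb, again with overlapping ranges. REL was lowest at 1.07 ± 0.0165 CPM per kb. In GENCODE release 29 another gene on the same strand, AC010733.2, covers 43.3% of the exon length of REL and is at 0 in all libraries, so the level of REL is uncertain. In siDEPDC1 the level of RELA was 18.2 ± 1.10 and that of NFKB2 15.8 ± 1.13 CPM per kb (SD, n = 4).

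**Figure D2:**
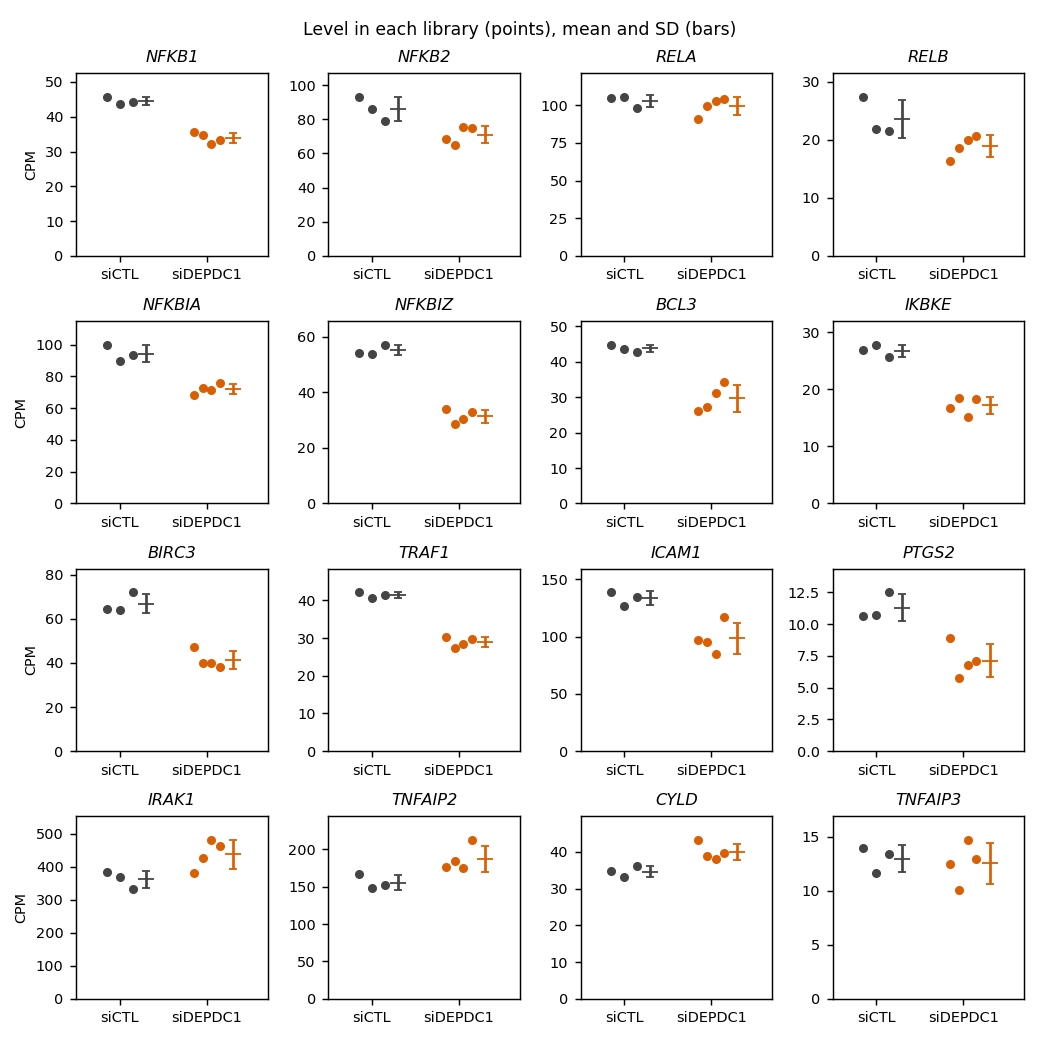
Level in CPM (vertical axis, from 0) of 16 NF-kB genes in each siCTL (grey) and siDEPDC1 (orange) library, with the group mean and SD. Every siDEPDC1 point lies below every siCTL point in NFKB1, NFKB2, RELB, NFKBIA, NFKBIZ, BCL3, IKBKE, BIRC3, TRAF1, ICAM1 and PTGS2, and the groups overlap in RELA, IRAK1 and TNFAIP3.

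The IkB family showed the largest fall of any member. NFKBIZ (ENSG00000144802; chromosome 3, 101827991 to 101861022, plus strand), a nuclear IkB protein that is induced by interleukin and Toll-like receptor signals and takes part in transcription of secondary response genes, was at 54.2, 53.9 and 57.2 CPM in siCTL. It was at 33.8, 28.7, 30.3 and 33.0 CPM in siDEPDC1, clear of all controls. Its log2 fold change was -0.81 ± 0.072 (SE; edgeR adjusted p = 4.1e-11). BCL3, another nuclear IkB protein, which binds dimers of processed NFKB1 or NFKB2, was at 44.9, 43.7 and 42.8 CPM in siCTL and 26.0, 27.2, 31.3 and 34.3 CPM in siDEPDC1. The siDEPDC1 libraries of BCL3 were spread more widely than the controls and stayed below them, with a log2 fold change of -0.57 ± 0.080 (SE; edgeR adjusted p = 8.2e-07).

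The classical inhibitor was lower as well. NFKBIA (ENSG00000100906; chromosome 14, 35401511 to 35404749, minus strand) encodes IkB-alpha, whose degradation releases canonical dimers and whose resynthesis ends the response. Its level was 99.96, 89.6 and 93.5 CPM in siCTL and 68.0, 72.5, 71.5 and 75.7 CPM in siDEPDC1. No siDEPDC1 library reached the lowest control, and the log2 fold change was -0.39 ± 0.061 (SE; edgeR adjusted p = 4.7e-06). Of the other cytoplasmic inhibitors, NFKBIB was at 16.4 to 18.1 CPM in siCTL and 12.8 to 16.9 CPM in siDEPDC1. These ranges overlapped, and the call on its log2 fold change of -0.25 (edgeR adjusted p = 0.047) was lost in 11 of 16 alternative settings, with an edgeR adjusted p of up to 0.16. NFKBIE was at 24.6 to 30.4 CPM in siCTL and 24.5 to 26.9 CPM in siDEPDC1, with a log2 fold change of -0.079 (95% interval -0.24 to 0.082; edgeR adjusted p = 0.49). NFKBIA had the highest level per length of the 5 IkB genes in siCTL, 39.8 ± 2.21 CPM per kb (SD, n = 3), and NFKBIB the lowest.

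The catalytic subunits of the canonical kinase did not pass the test, while its scaffold and an IKK-related kinase were lower. IKBKB, the main IkB kinase, was at 55.2, 56.4 and 60.3 CPM in siCTL and 61.9, 54.6, 57.0 and 59.7 CPM in siDEPDC1 (log2 fold change 0.025, 95% interval -0.10 to 0.15; edgeR adjusted p = 0.81). CHUK, the catalytic subunit that acts in the non-canonical branch, was at 53.4, 52.1 and 56.9 CPM in siCTL and 56.4, 62.8, 57.8 and 47.7 CPM in siDEPDC1 (log2 fold change 0.056, 95% interval -0.089 to 0.20; edgeR adjusted p = 0.60). The groups overlapped in both genes. IKBKG, the ubiquitin-binding scaffold known as NEMO, was at 30.7, 37.0 and 28.9 CPM in siCTL and 23.7, 25.9, 23.1 and 29.2 CPM in siDEPDC1. The highest siDEPDC1 library of IKBKG exceeded the lowest control, and its log2 fold change of -0.34 ± 0.088 (SE; edgeR adjusted p = 0.0030) fell short of the threshold without siCTL replicate 2 (-0.22, edgeR adjusted p = 0.085). IKBKG has a near-identical pseudogene copy, so its counts are uncertain.

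IKBKE, a kinase related to the IKKs that is induced by inflammatory signals and amplified in some breast cancers, was at 26.8, 27.8 and 25.7 CPM in siCTL. In siDEPDC1 it was at 16.7, 18.5, 15.2 and 18.4 CPM, below every control, a log2 fold change of -0.63 ± 0.084 (SE; edgeR adjusted p = 2.9e-07). The related kinase TBK1 was at 27.3 to 28.6 CPM in siCTL and 22.4 to 29.5 CPM in siDEPDC1 and did not pass (log2 fold change -0.086, 95% interval -0.25 to 0.077; edgeR adjusted p = 0.45). The difference between the responses of IKBKE and TBK1 was not tested.

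Among the upstream kinases, both branches had lower members. MAP3K14, the NF-kB-inducing kinase that starts the non-canonical branch, was at 33.8, 33.7 and 30.3 CPM in siCTL and 23.8, 23.9, 25.7 and 21.6 CPM in siDEPDC1. The groups were well apart, with a log2 fold change of -0.47 ± 0.079 (SE; edgeR adjusted p = 1.4e-05), although an antisense gene, MAP3K14-AS1, covers 12.3% of its exon length and the strand setting of the counting was not given in the sources used here. MAP3K7, the TAK1 kinase that activates the IKK complex, was at 54.4 to 60.1 CPM in siCTL and 46.2 to 52.0 CPM in siDEPDC1 (log2 fold change -0.21, edgeR adjusted p = 0.013), a call lost in 3 of 16 alternative settings, among them without siCTL replicate 3 (edgeR adjusted p = 0.062) and without siDEPDC1 replicate 3 (edgeR adjusted p = 0.058). TAB3, which links this kinase to ubiquitin chains, was at 40.4, 39.4 and 43.3 CPM in siCTL and 51.9, 50.1, 46.5 and 47.9 CPM in siDEPDC1. All siDEPDC1 libraries of TAB3 were above the controls, a log2 fold change of 0.26 ± 0.069 (SE; edgeR adjusted p = 0.0030). TAB1 and TAB2, the other binding partners, had log2 fold changes of 0.064 and 0.096 and did not pass (edgeR adjusted p = 0.58 and 0.20).

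Of the TRAF adaptors and cIAP ubiquitin ligases, 5 of 7 were lower, against 17.9% of all tested genes, and the other 2 did not pass the test. BIRC3 (ENSG00000023445; chromosome 11, 102317450 to 102339403, plus strand), the inducible cIAP ligase that ubiquitinates RIPK1 and MAP3K14, was at 64.7, 64.1 and 72.0 CPM in siCTL and 47.4, 40.1, 40.1 and 38.1 CPM in siDEPDC1. Its highest siDEPDC1 library remained below the lowest control, and the log2 fold change was -0.69 ± 0.073 (SE; edgeR adjusted p = 2.0e-09). BIRC2, the constitutive cIAP gene next to it on chromosome 11, was at 89.9, 91.2 and 98.2 CPM in siCTL and 93.1, 90.9, 86.9 and 75.6 CPM in siDEPDC1. The groups of BIRC2 overlapped (log2 fold change -0.10, 95% interval -0.23 to 0.025; edgeR adjusted p = 0.23). Per length, BIRC2 was at 20.5 ± 0.977 and BIRC3 at 8.90 ± 0.587 CPM per kb in siCTL (SD, n = 3).

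TRAF1, an adaptor that is itself induced by NF-kB and binds the cIAP ligases, was at 42.1, 40.6 and 41.4 CPM in siCTL and 30.2, 27.4, 28.4 and 29.8 CPM in siDEPDC1. Both groups were tight, with a log2 fold change of -0.52 ± 0.072 (SE; edgeR adjusted p = 5.9e-07). TRAF3, which holds MAP3K14 for degradation, was at 50.3 to 52.0 CPM in siCTL and 42.2 to 43.9 CPM in siDEPDC1 (log2 fold change -0.24, edgeR adjusted p = 0.0045). TRAF5 and TRAF6, the latter the ubiquitin ligase of the Toll-like and interleukin receptor branch, had log2 fold changes of -0.38 and -0.28 (edgeR adjusted p = 0.0020 and 0.0099), and TRAF6 lost its call without siCTL replicate 2 (edgeR adjusted p = 0.075). TRAF2 did not pass, at -0.18 (95% interval -0.33 to -0.021; edgeR adjusted p = 0.083), but passed without siCTL replicate 3 (-0.23, edgeR adjusted p = 0.030) and without siDEPDC1 replicate 4 (-0.21, edgeR adjusted p = 0.048).

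The adaptors of Toll-like and interleukin receptors and of antigen receptor signalling went both ways. IRAK1, a kinase recruited by MYD88, had the highest level per length of all members, 90.4 ± 6.56 CPM per kb in siCTL (SD, n = 3). It was at 383, 369 and 333 CPM in siCTL and 382, 426, 481 and 463 CPM in siDEPDC1. The siDEPDC1 libraries differed among themselves, and replicate 1 lay within the control range, but the log2 fold change of 0.27 ± 0.065 (SE) passed the test (edgeR adjusted p = 0.0012). IRAK4, the kinase that activates IRAK1, was at 16.4 to 18.2 CPM in siCTL and 12.7 to 15.03 CPM in siDEPDC1, a log2 fold change of -0.30 (edgeR adjusted p = 0.013) that was lost in 4 of 16 alternative settings, among them without siCTL replicate 2 (edgeR adjusted p = 0.078). MYD88 had a log2 fold change of -0.15 and did not pass (edgeR adjusted p = 0.12). Of the antigen receptor adaptors, BCL10 rose from 32.9 ± 2.90 (SD, n = 3) to 39.8 ± 2.92 CPM (SD, n = 4; edgeR adjusted p = 0.0060), and the paracaspase gene MALT1 fell from 47.1 ± 3.98 to 39.1 ± 3.07 CPM (edgeR adjusted p = 0.0053). BCL10 lost its call without siCTL replicate 1 (edgeR adjusted p = 0.056).

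TNFAIP3 itself did not pass the test. TNFAIP3 (ENSG00000118503; chromosome 6, 137867188 to 137883312, plus strand) encodes a ubiquitin-editing enzyme that shuts down the pathway upstream of the IKK complex and is a textbook NF-kB target. It was at 14.0, 11.6 and 13.4 CPM in siCTL and 12.5, 10.1, 14.7 and 12.9 CPM in siDEPDC1, from 113 to 190 counts a library. The siDEPDC1 libraries spanned the whole control range, with a log2 fold change of -0.069 ± 0.113 (SE; 95% interval -0.29 to 0.15; edgeR adjusted p = 0.67). This interval does not reach the fitted log2 fold changes of NFKBIA, BIRC3 or NFKBIZ, but it overlaps the 95% interval of NFKBIA (-0.51 to -0.27). It also includes the fitted values of NFKB2 (-0.28) and REL (-0.26), which were lower. The difference between TNFAIP3 and these genes was not tested. At 2.57 ± 0.244 CPM per kb in siCTL (SD, n = 3), TNFAIP3 was among the lowest members, with TRAF5, PTGS2, REL and RNF31 below it. Its range over the siCTL libraries overlapped those of TRAF5 and PTGS2, and those of CYLD and TNFAIP8 above it.

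The TNFAIP3-binding proteins TNIP1 and TNIP2 did not pass the test, while of the deubiquitinases CYLD was higher and OTULIN lower. TNIP1, which tethers TNFAIP3 to its substrates, was at 327, 312 and 304 CPM in siCTL and 302, 317, 316 and 364 CPM in siDEPDC1 (log2 fold change 0.047, 95% interval -0.068 to 0.16; edgeR adjusted p = 0.57). It had the second highest level per length of all members, 54.3 ± 1.98 CPM per kb in siCTL (SD, n = 3). TNIP2 had a log2 fold change of 0.057 and did not pass (edgeR adjusted p = 0.60). CYLD, a deubiquitinase that removes chains from NF-kB adaptors, was at 34.7, 33.1 and 36.1 CPM in siCTL and 43.2, 38.8, 38.2 and 39.7 CPM in siDEPDC1. Every siDEPDC1 library of CYLD was above the controls (log2 fold change 0.21 ± 0.073, SE; edgeR adjusted p = 0.022), but the call was lost in 4 of 16 alternative settings, among them without siCTL replicate 1, siCTL replicate 2 and siDEPDC1 replicate 1 (edgeR adjusted p = 0.059, 0.12 and 0.054). OTULIN, the deubiquitinase for linear chains, was at 53.4, 56.0 and 55.8 CPM in siCTL and 43.5, 42.7, 44.9 and 42.4 CPM in siDEPDC1. Every siDEPDC1 library of OTULIN was below the controls, with a log2 fold change of -0.35 ± 0.066 (SE; edgeR adjusted p = 8.4e-05).

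The 3 subunits of the linear ubiquitin ligase did not pass the test. RBCK1 was at 77.6 to 82.2 CPM in siCTL and 70.9 to 79.4 CPM in siDEPDC1 (log2 fold change -0.11, edgeR adjusted p = 0.15), and SHARPIN at 55.4 to 70.0 and 58.0 to 69.6 CPM (0.0077, edgeR adjusted p = 0.95). RNF31, the catalytic subunit, had 8 to 23 counts a library (log2 fold change 0.015, 95% interval -0.61 to 0.64; edgeR adjusted p = 0.98). In GENCODE release 29 another gene on the same strand, AL136295.5, covers 34.8% of the exon length of RNF31, and its own level did not exceed 0.516 CPM. The handling of reads in shared exons was not given in the sources used here, and the count of RNF31 is uncertain as a measure of its transcript.

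**Figure D3:**
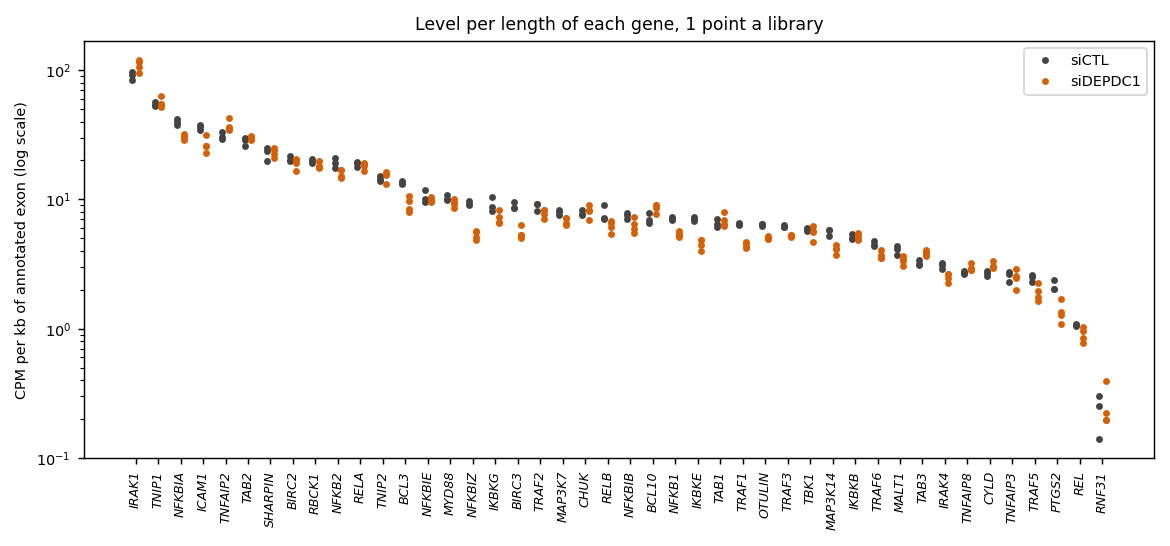
Level of each of the 44 genes in CPM per kb of annotated exon (vertical log axis), 1 point a library, ordered by the siCTL mean. IRAK1 and TNIP1 are highest and REL and RNF31 lowest. Of the 43 neighbouring pairs in this order, 14 had siCTL libraries that did not overlap.

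Effector genes of the pathway also split. ICAM1, an adhesion molecule for leukocytes, was at 139, 127 and 135 CPM in siCTL and 96.6, 95.4, 84.9 and 117 CPM in siDEPDC1. All siDEPDC1 libraries of ICAM1 were below the controls, replicate 4 the nearest to them, with a log2 fold change of -0.43 ± 0.071 (SE; edgeR adjusted p = 1.3e-05). Genes on the opposite strand cover 23.6% of its exon length. PTGS2, the inducible cyclooxygenase, was at 10.6, 10.8 and 12.5 CPM in siCTL and 8.90, 5.75, 6.77 and 7.13 CPM in siDEPDC1 (log2 fold change -0.67 ± 0.128, SE; edgeR adjusted p = 9.2e-05). Its siDEPDC1 libraries were all below the controls, replicate 1 the nearest to them. TNFAIP2, a TNF-induced gene, went the other way, at 167, 148 and 152 CPM in siCTL and 176, 184, 174 and 212 CPM in siDEPDC1. Its groups were apart as well (log2 fold change 0.27 ± 0.064, SE; edgeR adjusted p = 0.0012). TNFAIP8 had siDEPDC1 libraries just above the controls but did not pass (log2 fold change 0.13, edgeR adjusted p = 0.19).

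**Figure D4:**
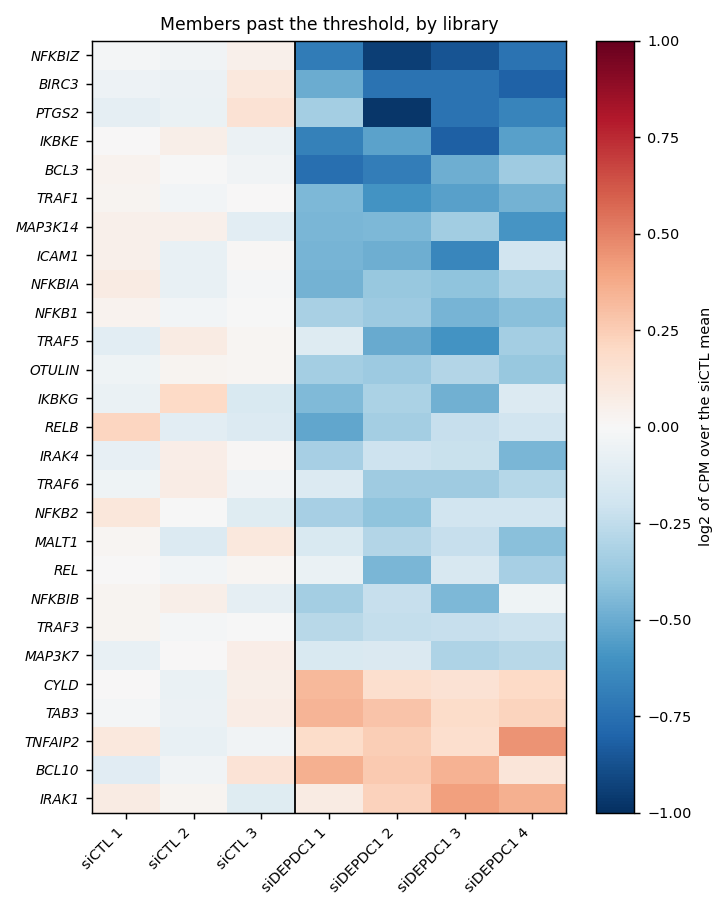
Log2 of CPM over the siCTL mean (colour, blue lower and red higher) for the 27 members past the threshold, in each of the 7 libraries (columns), ordered by fold change. The top rows, NFKBIZ, BIRC3 and PTGS2, are blue in all 4 siDEPDC1 libraries, and the bottom 5 rows hold the genes that rose.

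Few members held a copy of the heptamer GATAACT in the 3' UTR, searched because genes with it were lower more often in this series. Of the 44 members, 3 (6.82%) held a copy, BCL3, TRAF5 and PTGS2, against 7.67% of the 12516 tested genes that could be searched. All 3 were lower, as were 53.6% of all searched genes with a copy and 17.5% of those without. The sites are shown in lower case with the word in capitals, on the strand of the gene. They lie at chr19:44759939-44759945 (plus strand, exon 9 of 9 of BCL3), chr1:211373738-211373744 (plus strand, exon 11 of 11 of TRAF5) and chr1:186672092-186672098 (minus strand, exon 10 of 10 of PTGS2), in GRCh38.
BCL3: ctctctaccaGATAACTgaggagggga
TRAF5: actattctctGATAACTttttttttga
PTGS2: tatcattaaaGATAACTcaggagaatc
Without these genes 19 of 41 members were lower and 5 higher, with a median log2 fold change of -0.15. Of all searched genes without a copy, 17.5% were lower and 19.6% higher, with a median of 0.014. NFKBIZ, BIRC3, IKBKE, TRAF1, NFKBIA, NFKB1 and ICAM1 had no copy in any of their basic annotated 3' UTRs. Whether the word has a part in the falls of BCL3, TRAF5 and PTGS2, or of the members as a set, was not tested.

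Inputs to the pathway, a list of 39 receptors, ligands and adaptors, had 8 lower and 4 higher genes among 34 tested (23.5% and 11.8%, against 17.9% and 16.5% of all tested genes), with a median log2 fold change of -0.033. TNFRSF1A, the main TNF receptor, fell from 139 ± 4.45 (SD, n = 3) to 114 ± 3.59 CPM (SD, n = 4; edgeR adjusted p = 0.00013). RIPK1, the kinase recruited to it, fell from 44.4 ± 3.24 to 34.5 ± 1.10 CPM (edgeR adjusted p = 0.00013). The lymphotoxin receptor LTBR, which feeds the non-canonical branch, fell 1.23-fold, the death ligand TNFSF10 1.58-fold and TLR6 1.42-fold (edgeR adjusted p = 0.00086, 3.1e-05 and 0.00094). In the other direction, TNFRSF1B, the second TNF receptor, rose from 6.71 ± 0.458 to 13.45 ± 2.16 CPM (log2 fold change 1.02 ± 0.124, SE; edgeR adjusted p = 4.5e-08). TLR5, a flagellin receptor, rose 1.61-fold and the ubiquitin-conjugating enzyme gene UBE2L3 1.20-fold (edgeR adjusted p = 0.0035 and 0.0014). TRADD, FADD, CD40 and TLR4 did not pass, with log2 fold changes of -0.019, -0.0015, -0.030 and 0.072.

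Of 45 listed target genes that are not members, 35 could be tested, and 9 were lower and 7 higher, with a median log2 fold change of -0.088. These shares, 25.7% and 20.0%, stand beside 17.9% and 16.5% of all tested genes. The 5 lower genes with the smallest adjusted p were PLAU, CSF1, VEGFC, SQSTM1 and CFLAR. CSF1, a macrophage growth factor, fell from 510 ± 22.3 to 299 ± 33.0 CPM (log2 fold change -0.77 ± 0.063, SE; edgeR adjusted p = 7.7e-12), and VEGFC, a lymphangiogenic factor, fell 1.44-fold. Higher genes included CD83, LIF, IL1B and IER3. CD83, a surface protein of activated immune cells, rose from 7.93 ± 0.996 to 15.7 ± 1.07 CPM (edgeR adjusted p = 9.2e-09), and the stress gene IER3 rose 1.18-fold. The chemokine gene CXCL8 was at 39.2 CPM in siCTL and 40.5 CPM in siDEPDC1 on average, and IL6 at 4.26 and 3.79 CPM, and neither passed (edgeR adjusted p = 0.65 and 0.64). TNF, CCL2, CCL5, CCL20, CXCL10, BCL2A1, VCAM1, SELE and MMP9 did not pass the filter on low counts, and SOD2 was not matched by symbol and is not analysed here.

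Of 30 further regulators, 29 were tested, with 7 lower, 2 higher and a median log2 fold change of -0.011. These are 24.1% and 6.90% of the list, against 17.9% and 16.5% of all tested genes. TRAF3IP2, the adaptor of interleukin 17 receptors, fell 1.58-fold (edgeR adjusted p = 2.5e-06), the deubiquitinase gene USP4 1.28-fold and the kinase gene IRAK2 1.30-fold. OTUD7B, a deubiquitinase of TRAF3, and NLRC5 fell 1.17-fold and 1.19-fold (edgeR adjusted p = 0.0047 and 0.011). TOLLIP, an inhibitor of IRAK1, rose 1.26-fold (edgeR adjusted p = 0.00018) and BTRC, the ligase subunit that marks phosphorylated IkB for degradation, 1.16-fold (edgeR adjusted p = 0.025). The ubiquitin adaptor TAX1BP1 and the ubiquitin ligase ITCH, which work with TNFAIP3, did not pass, with log2 fold changes of -0.031 and -0.089.

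**Figure D5:**
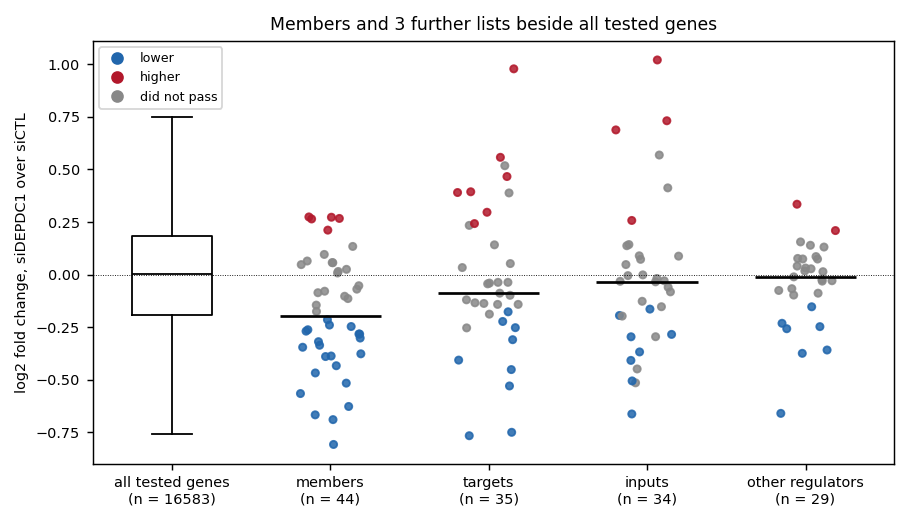
Log2 fold change (siDEPDC1 over siCTL, vertical axis) of all tested genes (box: quartiles and median, whiskers to 1.5 times the box) and of each gene of the members and 3 further lists (points, with the median as a line). The medians are 0.00094 for all genes, -0.20 for the members, -0.088 for targets, -0.033 for inputs and -0.011 for other regulators.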

How the data were processed

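The 7 libraries of MDA-MB-231 cells were analysed from a table of raw gene counts that the authors deposited without normalization or pooling. FastQC, STAR 2.7.9a and DESeq2 are named, with build GRCh38, per the submitters' processing notes. The read counter, annotation release and strand setting were not given in the sources used here. Symbols were taken from a name table that covers 42022 of the 60675 identifiers, and coordinates, exon lengths and 3' UTRs of at least 50 bases from GENCODE release 29, which may not be the release used to count. For the share of genes with the 3' UTR word, the basic transcript ranked best by its APPRIS tag stood for each gene.

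Genes were filtered with edgeR's filterByExpr by group, which left 16583. R 4.3.3 and edgeR 4.0.16 were used for a two-sided quasi-likelihood test between groups with no further covariate (robust glmQLFit, TMM factors), and Benjamini-Hochberg adjustment at 0.05 ran over all tested genes. Standard errors are those implied by the quasi-likelihood F statistic, and 95% intervals are normal intervals from them. "Rose", "fell", "lower" and "higher" refer to genes past this threshold. The script was tested on simulated data. Replicate pairs differed by 1.68 to 4.68 times sampling noise (chi-square per degree of freedom), so no library was treated as a copy. Intervals cover the spread between libraries and counting error.

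The members and lists were chosen with earlier results of these data known. All members could be named, with full values for the subunits, IkB proteins, IKK complex, TNFAIP3 and called members, and from each further list up to 5 called genes in each direction by adjusted p. Some genes that this rule selects are not reported here. Uncalled list genes that are named were chosen after their values were seen. Alternatives were DESeq2 size factors, library totals alone, no count filter, at least 50 counts, DESeq2 1.42.0 and limma-voom (limma 3.58.1). Further ones were libraries 1 to 3 with and without a replicate block, thinning to the smallest library, and each library left out in turn. Use of siCTL replicate 3 as the only control was added after seeing the data.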

Additional observations from a re-analysis of the deposited data

Results flagged for a closer look

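In each member the 4 siDEPDC1 libraries were examined for 1 value far from the other 3, by its gap to the nearest value as a share of the whole range. Of 44 genes examined, 1 was past the 95% limit, and chance gives about 1 in 20. RNF31 was at 1.95 CPM in siDEPDC1 replicate 3, with the next value at 1.10 CPM, from 15 counts in each of these libraries.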

How the results depend on the processing

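Under the 16 planned settings, 18 of the 27 called members kept their call in every one, and 9 (REL, NFKBIB, IRAK4, CYLD, MAP3K7, RELB, BCL10, IKBKG and TRAF6) lost it in at least 1. The setting of libraries 1 to 3 without a block is the same fit as leaving out siDEPDC1 replicate 4. Counts out of the 16 settings include this fit under both names. TRAF2 and MYD88 gained a call in at least 1 setting, and no called member changed sign. In all, 658 of 702 values for single members stayed on the same side of the threshold with the same direction where called. With library totals alone the members' median log2 fold change was -0.17, and this scaling moved the median of all genes to 0.031. Leaving out 1 library gave medians from -0.21 to -0.17, with 17 to 22 lower and 3 to 5 higher members. Among the further regulators it gave 4 to 7 lower and 1 to 3 higher genes. The calls over all tested genes changed with the setting too. Without siCTL replicate 1, 19 members and 4 further regulators were lower, against 2467 of 16828 tested genes. In that fit 3 members and 2 further regulators were higher, against 2164 of the tested genes. Without siDEPDC1 replicate 4, 22 members and 6 further regulators were lower, against 2767 of 16600 tested genes. There 5 members and 3 further regulators were higher, against 2627 of the tested genes. With no count filter and with DESeq2, 1 further regulator was higher, against 2285 of 35823 and 2138 of 16583 tested genes. With siCTL replicate 3 as the only control, where the spread comes from the siDEPDC1 libraries, 13 members were lower and 2 higher, with a median of -0.16, against 1802 lower and 1408 higher of 17351 tested genes. The numbers shared by the groups gave correlations of -0.12, -0.042 and 0.0030 between libraries of the same number. Between libraries of different number the correlations ran from -0.18 to 0.11. So few libraries cannot show whether those of the same number were paired. With a replicate block on libraries 1 to 3, 24 members were called, against 27 without the block. Of the 16600 genes tested in both fits, 2437 were lower and 2292 higher with the block, and 2767 and 2627 without it. The cause of these shifts was not tested. Depth limits the precision most for RNF31, with 8 to 23 counts a library and a 95% interval from -0.61 to 0.64.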
